A study of Glycine max with 8 samples.

Results

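The regions described here are the places on soybean (Glycine max) chromosomes 3 and 19 at which both biological replicates of a chromatin immunoprecipitation gave a peak. They were chosen by chromosome name alone: peaks of the 2 replicate lists that overlapped by at least 1 bp were joined into a shared region, and every shared region on these chromosomes was taken. This gave 1471 regions, 712 on chromosome 3 and 759 on chromosome 19, of 15872 shared regions in all. Another 14321 lay on the 18 other chromosomes and the rest on scaffolds outside them. Beyond a called peak in each list no level of enrichment was asked for, and all 1471 regions enter the counts below.

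The ChIP group came from embryos of the cultivar Williams 82, dissected at mid-maturation from greenhouse plants, crosslinked, and immunoprecipitated with an antibody raised to part of the GLYMA.08G357600 protein. The input group was chromatin of the same embryos' extracts kept back before the antibody was added. Each group had 2 biological replicates sequenced on 2 lanes, 8 libraries in all, and the labels name no transgene, mutation or treatment. All cell types of the embryo were pooled in the chromatin, and the number of embryos per replicate is not known. The values come from 1 peak list per ChIP replicate, in which input enters only as the background.

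ChIP-seq collects the DNA fragments that a protein holds, and a peak is a place where such fragments pile up above the background. Soybean carries an old whole-genome duplication, so that much of its genome is present as pairs of related blocks on different chromosomes, and chromosomes 3 and 19 are known to hold such blocks in common. In its chromosomes the genes are concentrated towards the ends, while the broad middle around the centromere is heterochromatin, rich in repeats and poor in genes. The comparisons below asked how the bound regions lie along the 2 chromosomes, where the most enriched ones are, and how far the chromosomes resemble each other and the rest. No test was made, since the regions of a chromosome are not replicates of each other and there are only 2 lists. Differences are set against the 2 lists taken alone and against the spread over the other chromosomes.

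Positions count from 1 at the first base of the deposited coordinates, whose genome build the sources used here do not name. Neither the DNA sequence of the regions nor the genes beside them are therefore reported. The length of a chromosome was taken as its highest peak end, 45.7 Mb for chromosome 3 and 50.7 Mb for chromosome 19. Centromere positions were not used, so each chromosome was split at its midpoint into a lower and an upper side by coordinate.

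The replicates marked much the same places on both chromosomes. Chromosome 3 had 953 peaks in replicate 1 and 818 in replicate 2, and chromosome 19 had 1008 and 872. On chromosome 3, 74.9% of the replicate 1 peaks overlapped a replicate 2 peak (Wilson 95% interval 72.1% to 77.6%), against 75.2% of replicate 1 peaks over the whole genome. On chromosome 19 the share was 75.6% (72.8% to 78.1%). Of the replicate 2 peaks, 87.4% on chromosome 3 (85.0% to 89.5%) and 87.7% on chromosome 19 (85.4% to 89.7%) overlapped a replicate 1 peak, against 87.0% over the genome. None of these shares stood apart from the genome's by more than its interval, and the intervals cover counting error only. Summits of the replicates lay a median of 29 bp apart on chromosome 3 and 31 bp apart on chromosome 19. They were at most 100 bp apart in 92.1% and 91.0% of regions, against a mean of 92.8% ± 0.842 (SD, n = 18) on the other chromosomes, and the share on chromosome 19 was the lowest of the 20 chromosomes.

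Enrichment was also alike in the replicates. The fold enrichment is the authors' value at the summit of a peak: the count of overlapping fragments divided by the local background, after a pseudocount of 1 was added to each. Its median over the regions of chromosome 3 was 6.87 in replicate 1 and 7.23 in replicate 2, and over those of chromosome 19 it was 6.86 and 7.25. Over the regions of the 18 other chromosomes the medians were 6.93 and 7.24. Between replicates, the fold had a Spearman rho of 0.805 across the regions of chromosome 3, 0.817 across those of chromosome 19 and 0.811 across those of the other chromosomes. These correlations run across regions that share their libraries and had to be called in both, and are given without a p. The summits of the 1471 regions held between 16 and 395 fragments in replicate 1, and between 13 and 372 in replicate 2. The lowest background of a list was 3.91 fragments in replicate 1 and 2.74 in replicate 2, and the median region had 1.24 times as many fragments in replicate 1 as in replicate 2 on either chromosome.

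The peaks found in 1 list only were weak. On chromosome 3, 239 peaks of replicate 1 and 103 of replicate 2 had no partner, with median folds of 4.43 and 4.54. On chromosome 19 there were 246 and 107 such peaks, with median folds of 4.30 and 4.80. The highest fold among them was 8.15 in replicate 1 (chromosome 3, 43292972 to 43293461) and 8.81 in replicate 2 (chromosome 3, 42225023 to 42225340). Every peak with a fold of at least 10 on these chromosomes therefore had a partner in the other list.

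Regions were spread at nearly the same mean density over both chromosomes, and neither was rich or poor for the genome. Chromosome 3 held 15.6 shared regions per Mb and chromosome 19 held 15.0, a ratio of 1.04. The other chromosomes averaged 17.1 ± 3.75 per Mb (SD, n = 18; range 12.8 to 25.4), and the chromosomes ranked 11 and 13 of 20. In the lists taken alone, chromosome 3 had 20.9 peaks per Mb in replicate 1 and 17.9 in replicate 2, and chromosome 19 had 19.9 and 17.2. The difference between the chromosomes had the same direction in both lists but was smaller than the difference between the lists. It was also small against the spread over the other chromosomes.

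**Figure D1:**
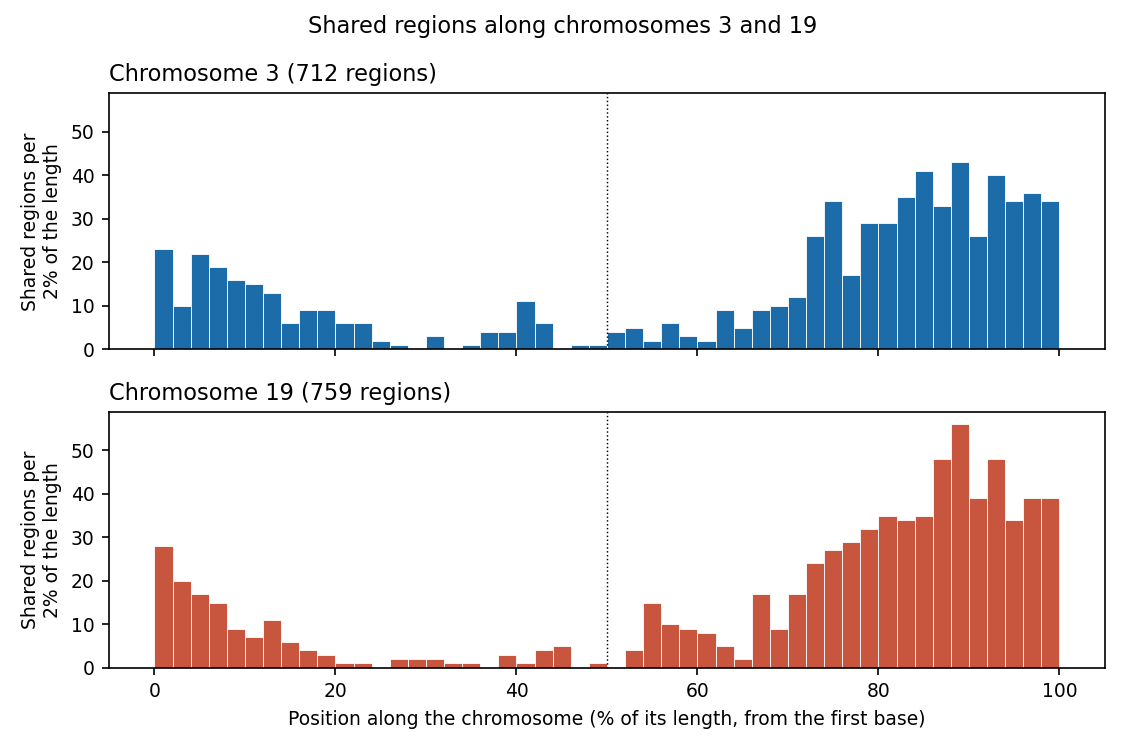
Number of shared regions in successive segments of 2% of the chromosome length (y axis) against position along the chromosome in % of its length (x axis), for chromosome 3 (upper plot) and chromosome 19 (lower plot); the dotted line is the midpoint. On both chromosomes the regions crowd at the end with the higher coordinates, thin out in a broad middle that begins well before the midpoint, and form a lower rise at the first bases.

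The layout was lopsided on both chromosomes. On chromosome 3, 524 of the 712 regions, or 73.6%, lay on the upper side (Wilson 95% interval 70.2% to 76.7%), and on chromosome 19 it was 615 of 759, or 81.0% (78.1% to 83.7%). These intervals do not overlap, but they cover counting error only and treat neighbouring regions as independent. The lists alone gave 74.5% and 72.6% for chromosome 3 and 81.3% and 81.0% for chromosome 19. The direction of a chromosome's coordinates is a convention, so the share on whichever side held more regions was also compared. That share averaged 64.5% ± 9.69 (SD, n = 18) on the other chromosomes, with a range of 50.3% to 80.4%. Chromosome 19 had the highest such share of the 20 chromosomes, but chromosomes 15 and 20 were close to it, at 80.4% each. Chromosome 3 ranked 7, and it differed from chromosome 19 by less than the SD over the other chromosomes.

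The ends held most of the regions. The outer 20% at each end, 40% of the length together, held 69.2% of the regions of chromosome 3 (65.8% to 72.5%) and 69.4% of those of chromosome 19 (66.1% to 72.6%). The other chromosomes averaged 69.5% ± 11.5 (SD, n = 18), so both were ordinary in this respect. The ends of 1 chromosome were unequal, however. The outer 20% at the upper end held 351 regions on chromosome 3 and 407 on chromosome 19, against 142 and 120 at the lower end. In density this was 38.4 and 40.1 regions per Mb at the upper ends, 15.5 and 11.8 at the lower ends, and 7.99 and 7.62 in the inner 60%. The median enrichment of these stretches was much alike, except that the lower end of chromosome 19 was higher in replicate 1 only. On chromosome 3 the median replicate 1 fold was 6.93 at the upper end, 6.98 at the lower end and 6.73 between them, and on chromosome 19 it was 6.84, 7.70 and 6.70. In replicate 2 the medians were 7.24, 7.23 and 7.21 on chromosome 3, and 7.43, 7.47 and 7.21 on chromosome 19. The share of regions with a fold of at least 20 in both lists was 9.69% (Wilson 95% interval 7.01% to 13.2%) at the upper end of chromosome 3, 6.34% (3.37% to 11.6%) at its lower end and 6.39% (3.85% to 10.4%) between them. On chromosome 19 the order was another, with 7.13% (5.01% to 10.0%), 8.33% (4.59% to 14.7%) and 6.90% (4.29% to 10.9%). Within each chromosome these intervals overlap.

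**Figure D2:**
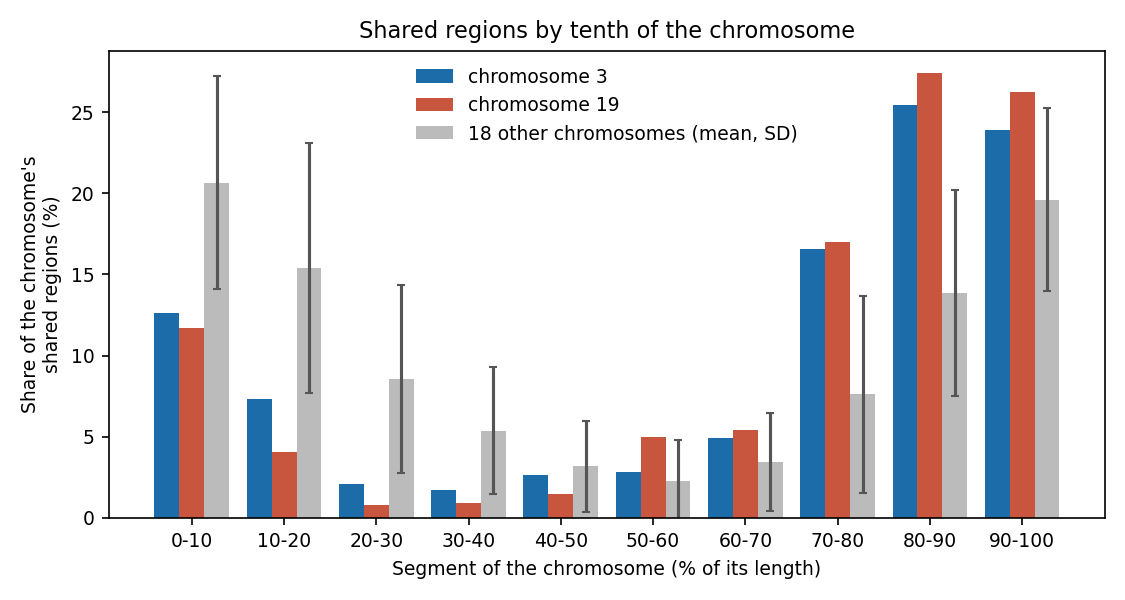
Share of a chromosome's shared regions, in %, in each segment of 10% of its length (x axis), for chromosome 3, chromosome 19 and the mean of the 18 other chromosomes with its SD as the bar. The segments from 70% to 100% were above the mean of the other chromosomes on both chromosomes, and those from 0% to 40% below it.

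Cut into segments of 10% of the length, chromosome 3 held 90, 52, 15, 12, 19, 20, 35, 118, 181 and 170 regions from its first base to its last. Chromosome 19 held 89, 31, 6, 7, 11, 38, 41, 129, 208 and 199. In both, the sparsest segments lay between 20% and 50% of the length, and the fullest segment was the last but one. The share of regions that would have to change segment for the profiles to be equal was 7.43 percentage points. With profiles read in the deposited direction, chromosomes 3 and 19 ranked 3 of the 190 pairs that 20 chromosomes make, after chromosomes 6 and 17 (6.18) and chromosomes 5 and 10 (6.98). The pair also ranked 3 of 190 in each list alone, with 7.79 points in replicate 1 and 8.35 in replicate 2. With either direction of reading allowed, a comparison added after the data had been seen, the pair ranked 5. Chromosome 15 read backwards was then nearer to chromosome 19, at 6.71 points, than chromosome 3 was. Chromosome 20, read in the deposited direction, was also near to both. It was 8.77 points from chromosome 3 (rank 5) and 9.55 points from chromosome 19 (rank 6), so the likeness was not particular to chromosomes 3 and 19. The value describes broad layout and is no measure of shared sequence.

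The crowding at the upper end can also be given as the shortest stretch that holds 50% of the regions. It was 9.27 Mb on chromosome 3 and 9.24 Mb on chromosome 19, or 20.3% and 18.2% of their lengths. On the other chromosomes this stretch averaged 26.98% ± 7.73 of the length (SD, n = 18). It was as short on some of them, with 16.3% on chromosome 15 and 18.95% on chromosome 20. The fullest 1 Mb window of chromosome 3 began at 40000001 and held 47 regions, and that of chromosome 19 began at 45000001 and held 55. Of the windows on the other chromosomes the fullest held 63. Windows with at least 40 regions made up 4 of 46 on chromosome 3 and 5 of 51 on chromosome 19, against 95 of 859 on the other chromosomes. At the other extreme, 2 windows of chromosome 3 and 4 of chromosome 19 held no shared region, against 51 of 859 on the other chromosomes.

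Strongly enriched regions were as frequent here as elsewhere. On chromosome 3, 57 regions had a fold of at least 20 in both lists (8.01%, Wilson 95% interval 6.23% to 10.2%), and on chromosome 19 it was 55 (7.25%, 5.61% to 9.31%), against 7.14% of all shared regions. With a limit of 10 the numbers were 174 (24.4%) and 187 (24.6%), against 24.4% of all shared regions. Both shares lie at the background of the genome, and the chromosomes did not differ beyond counting error. The 100 regions of the genome with the highest mean rank of fold in the 2 lists included 5 of chromosome 3 and 4 of chromosome 19. The highest 1000 included 50 and 52. The chromosomes hold 712 and 759 of the 15872 shared regions, so these counts lie near their share of all regions.

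**Figure D3:**
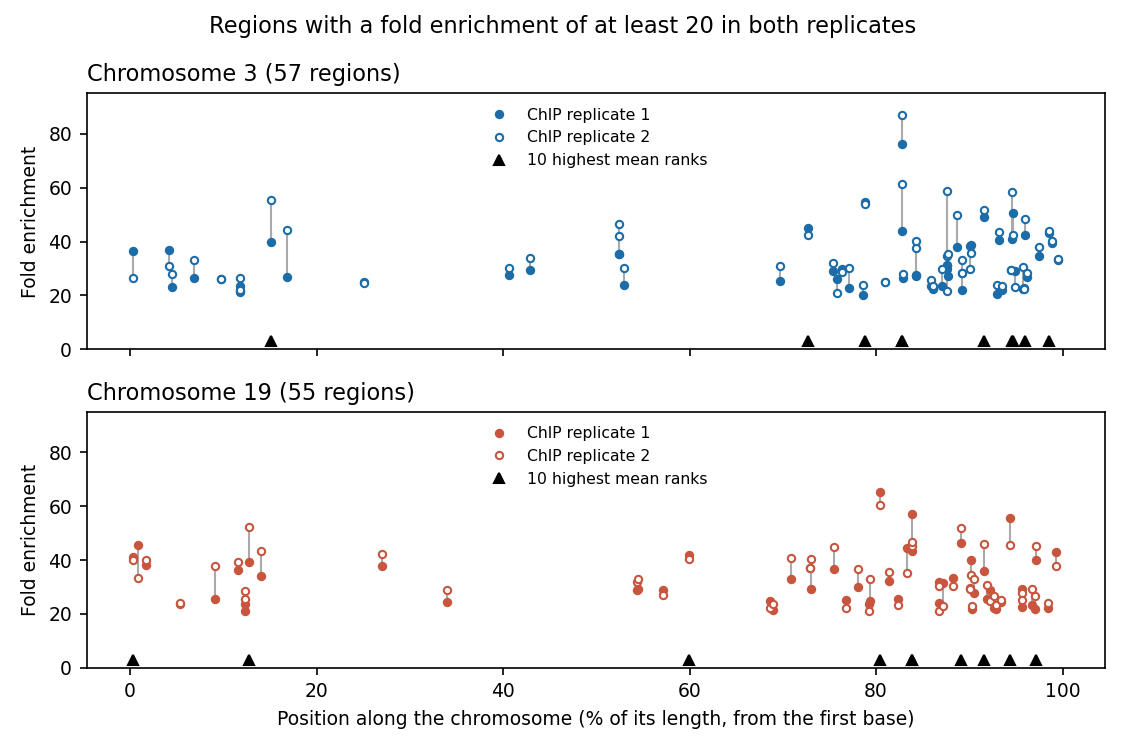
Fold enrichment (y axis) in replicate 1 (filled) and replicate 2 (open), joined by a line, of the regions with a fold of at least 20 in both, against position in % of the chromosome length (x axis), for the 57 regions of chromosome 3 and the 55 of chromosome 19. Triangles mark the 10 regions of each chromosome with the highest mean rank. Most strong regions lie in the last 30% of the length, with single ones or small groups elsewhere.

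The strong regions followed the layout of all regions. On chromosome 3, 45 of 57 (78.9%) lay on the upper side, and on chromosome 19 43 of 55 (78.2%). Their median spacing from one to the next was 333 kb on chromosome 3 and 487 kb on chromosome 19. Both were within the range of the other chromosomes, 244 kb (chromosome 11) to 730 kb (chromosome 16). The longest stretch without one ran 7.65 Mb on chromosome 3, between the regions ending at 24187461 and beginning at 31839852. On chromosome 19 it ran 10.4 Mb, between those ending at 17229104 and beginning at 27582327. Both stretches lay in the sparse middle. Neighbouring strong regions less than 10 kb apart formed 4 pairs on chromosome 3 and 1 pair on chromosome 19. The other chromosomes had between 0 (chromosome 2, for example) and 6 (chromosome 13) such pairs, so neither count stood out. The closest pair, 4031 bp between summits, lay near the middle of chromosome 3, at 23958525 to 23959870 with folds of 35.5 in replicate 1 and 46.6 in replicate 2, and at 23963043 to 23963701 with folds of 35.4 and 42.0. The first of them was also the widest region of chromosome 3, at 1346 bp. The widest of chromosome 19 measured 1752 bp, from 866255 to 868006 near the lower end, with folds of 38.1 and 40.02. Median widths of all regions were 448 bp on chromosome 3 and 461 bp on chromosome 19.

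The 10 most enriched regions of chromosome 3 began with a lone site at 6904103 to 6905347, where the fold was 39.8 in replicate 1 and 55.4 in replicate 2 and the summit held 296 and 282 fragments. No other of the 10 lay within 26.3 Mb of it, and 135 less enriched regions separated it from the next. The remaining 9 all lay between 33.2 and 45.0 Mb, on the upper side. The next was at 33227623 to 33228390, with folds of 44.9 and 42.3 and 255 and 215 fragments. A further 2.78 Mb on, the region at 36005554 to 36006495 had folds of 54.5 and 54.0 and 310 and 297 fragments, the closest match between replicates among these 10.

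Then came a pair of summits 5479 bp apart with no other shared region between them. The first, at 37819912 to 37820821, had folds of 44.1 in replicate 1 and 61.6 in replicate 2 and 328 and 288 fragments. The second, at 37825187 to 37826325, had folds of 76.2 and 87.1 and 395 and 372 fragments. This was the top-ranked region of the whole series by fold, in which the first of the pair ranked 72. By fragments it was not the highest, since summits on the other chromosomes held up to 410 in replicate 1 and 402 in replicate 2. Its folds in the replicates differed by less than its lead over the next highest region of chromosome 3 in either list.

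The other 5 of the 10 lay nearer the upper end. The region at 41861748 to 41862467 had folds of 49.3 in replicate 1 and 51.7 in replicate 2. The region at 43188096 to 43188974 had folds of 40.8 and 58.6, the largest relative difference between replicates among the 10. At 43283309 to 43284073, 95.2 kb further on, the folds were 50.8 and 42.5, with replicate 1 the higher. The region at 43837065 to 43838164 had folds of 42.5 and 48.6, and the last, at 45014817 to 45015853, had folds of 43.1 and 44.1. In 7 of the 10, replicate 2 had the higher fold. The region just outside these 10, at 40534099 to 40534996, had folds of 37.9 and 49.7, so that the limit of the list falls between close values.

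On chromosome 19 the 10 most enriched regions began at the very end of the lower side, at 158829 to 159650, with folds of 41.2 in replicate 1 and 40.1 in replicate 2. The next stood alone at 6471135 to 6472222, with folds of 39.3 and 52.4. A gap of 23.9 Mb, with 77 less enriched regions in it, led to the region at 30395853 to 30396738, with folds of 42.0 and 40.6. Compared with chromosome 3, where 1 of the 10 lay on the lower side and none between 20% and 70% of the length, 2 lay on the lower side and 1 near 60%.

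The most enriched region of chromosome 19 followed at 40810167 to 40811211, with folds of 65.3 in replicate 1 and 60.3 in replicate 2 and 347 and 307 fragments. It ranked 18 in the genome. A close pair came 1.75 Mb later, with summits 8748 bp apart and no shared region between them. Its first region, at 42561148 to 42562053, had folds of 57.1 and 45.3, and its second, at 42569972 to 42570854, had folds of 43.5 and 46.8. Each chromosome thus had 1 close pair among its 10 most enriched regions, at 82.8% of the length of chromosome 3 and 83.9% of that of chromosome 19. The 10 most enriched regions of the other chromosomes were not searched for such pairs, so this is not shown to be particular to these chromosomes.

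The rest of the 10 on chromosome 19 were more evenly spaced, between 1.24 and 2.63 Mb apart. The folds were 46.5 in replicate 1 and 52.1 in replicate 2 at 45201067 to 45201896, and 35.9 and 46.1 at 46443659 to 46444369. They were 55.7 and 45.5 at 47905623 to 47906651, and 39.95 and 45.1 at 49315711 to 49316401. Replicate 2 was the higher in 5 of the 10 regions of this chromosome. The region just outside them, at 38328972 to 38329597, had folds of 36.7 and 44.9.

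The replicates placed the summits of these 20 regions close together. They differed by at most 28 bp on chromosome 3 and 41 bp on chromosome 19. Widths ran from 720 to 1245 bp on chromosome 3 and from 691 to 1088 bp on chromosome 19, above the median width of all regions. The local background under them lay between 3.91 and 6.47 fragments in replicate 1, and between 2.74 and 4.51 in replicate 2. On chromosome 3 it was above the median of all regions (4.41 and 3.12) in 8 of the 10 in either replicate, and on chromosome 19 above the median (4.59 and 3.20) in 1 of the 10 in replicate 1 and 5 in replicate 2. The ranking depended on the replicate to a degree: 6 of the 10 on chromosome 3 and 5 of the 10 on chromosome 19 were among the top 10 of each list taken alone. Over the strong regions, the log2 ratio of replicate 2 to replicate 1 fold had an SD of 0.28 on chromosome 3 and 0.24 on chromosome 19, against 0.41 over all regions of either. The order within the 10 thus differed between the lists.

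Some regions had a high pileup over a high local background, and so a low fold. On chromosome 3, 2 regions had a background more than 5 times the lowest of a list. At 35160971 to 35161417 the summit held 247 fragments in replicate 1 and 180 in replicate 2, over backgrounds of 152 and 112, and the folds were 1.62 and 1.61. At 35731363 to 35731839 it held 236 and 217 fragments, and the folds were 1.46 and 1.88. Of the 2 on chromosome 19, that at 245797 to 246267 had folds of 1.74 and 2.16, and that at 43725100 to 43725600 had folds of 4.58 and 6.15. None of these 4 is among the strong regions.

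Stretches of more than 500 kb with no peak in either list were fewer on chromosome 3 than on chromosome 19. The longest were of like size, 1.80 Mb on chromosome 3 (14543423 to 16339232) and 1.96 Mb on chromosome 19 (15272621 to 17228406), against a mean of 2.02 ± 0.607 Mb (SD, n = 18) on the other chromosomes. The next on chromosome 3 were 1.67 Mb (20079471 to 21747867) and 1.104 Mb (10350202 to 11454295), and those on chromosome 19 were 1.28 Mb (24674734 to 25956918) and 1.11 Mb (12049641 to 13161878). Beyond these 3 the chromosomes parted. Chromosome 3 had 9 gaps longer than 500 kb, 8.72 Mb in all, and chromosome 19 had 19 of them, 16.6 Mb in all. The other chromosomes had 11.3 ± 3.66 (SD, n = 18; range 4 to 19), so that no chromosome had more than chromosome 19. As a share of length these gaps took up 19.1% of chromosome 3 and 32.8% of chromosome 19, against 22.9% ± 5.10 on the others. With replicate 1 alone there were 9 and 17 gaps of this length, and with replicate 2 alone 10 and 20. The difference between the chromosomes was thus larger than that between the lists. Its size depends on the limit of 500 kb, which was not varied. Chromosome 3 had further gaps just below this limit, the 10th at 0.476 Mb and the 17th at 0.403 Mb. On chromosome 19 the 19th gap measured 0.523 Mb and the 20th 0.447 Mb.

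**Figure D4:**
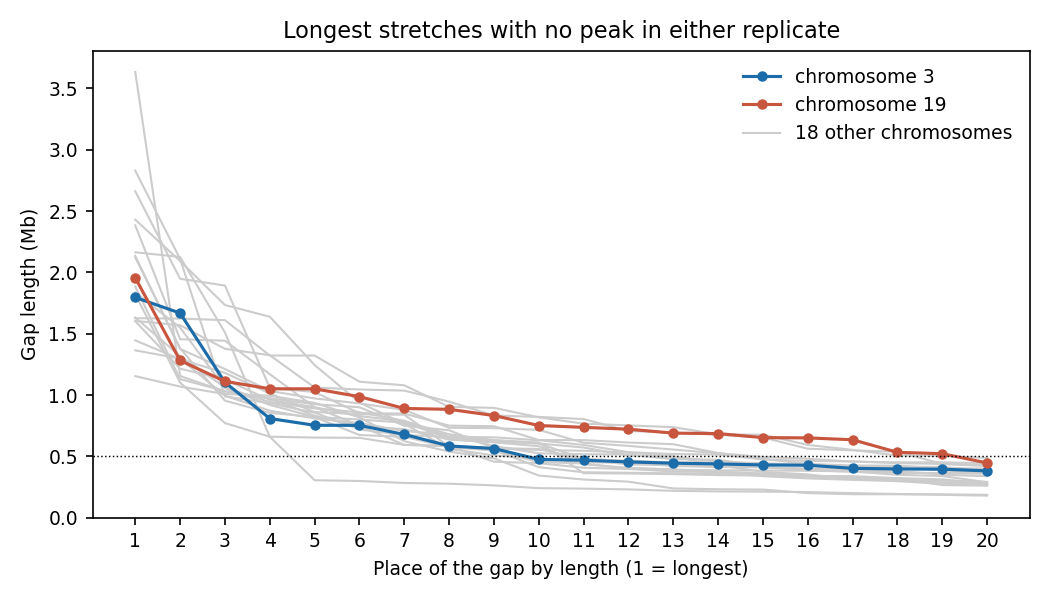
Length in Mb (y axis) of the 20 longest gaps, in which neither list has a peak, ordered from the longest (x axis), for chromosome 3, chromosome 19 and each of the 18 other chromosomes (grey lines); the dotted line marks 500 kb. The chromosomes start at 1.80 and 1.96 Mb, and from the 4th gap on chromosome 19 stays above chromosome 3.

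Of the long gaps, 9 of 9 on chromosome 3 and 17 of 19 on chromosome 19 were centred in the inner 60% of the length, and most lay on the lower side. On chromosome 3 their midpoints fell between 23.9% and 55.1% of the length, and 7 of 9 lay below the midpoint of the chromosome. On chromosome 19 they fell between 15.1% and 56.1%, and 17 of 19 lay below the midpoint. No gap of this length was centred beyond 60% of either chromosome. The lists hold no coverage outside the peaks, so a gap says only that no peak was called there.

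At short range the regions of both chromosomes were spaced alike. The nearest other shared summit lay a median of 10169 bp away on chromosome 3 and 8917 bp on chromosome 19. It lay within 2 kb for 112 regions of chromosome 3 (15.7%, Wilson 95% interval 13.2% to 18.6%) and 138 of chromosome 19 (18.2%, 15.6% to 21.1%). The intervals overlap, and the other chromosomes averaged 17.2% ± 2.00 (SD, n = 18). Chains of 3 or more regions in which neighbours lay at most 5 kb apart numbered 24 on chromosome 3 and 30 on chromosome 19 and held 10.7% and 12.6% of the regions. The longest on chromosome 3 had 5 regions over 9.05 kb (3147012 to 3156059), with folds of 4.69 to 26.5 in replicate 1 and 5.07 to 33.0 in replicate 2. The longest on chromosome 19 had 6 regions over 16.7 kb (47911849 to 47928575), with folds of 4.29 to 16.4 and 5.88 to 26.3. Long chains were therefore not places of uniformly high enrichment. The longest chain of chromosome 19 followed directly on a region of its top 10, that beginning at 47905623.

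Since the chromosomes are known to share duplicated blocks, the positions were also laid over each other. The 174 regions of chromosome 3 with a fold of at least 10 in both lists were moved by a constant distance, in steps of 25 kb and in either direction of reading, and those that came within 50 kb of such a region on chromosome 19 were counted. The highest count was 94 of 174 (54.0%), with positions moved up by 4.775 Mb and read in the same direction. The median count was 70 over distances within 3 Mb of this one and 16 over all distances. The distance was chosen for its count, so the count is a description. The chromosomes measured 45.7 and 50.7 Mb, so a distance of about this size also lays their crowded upper ends over each other.

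**Figure D5:**
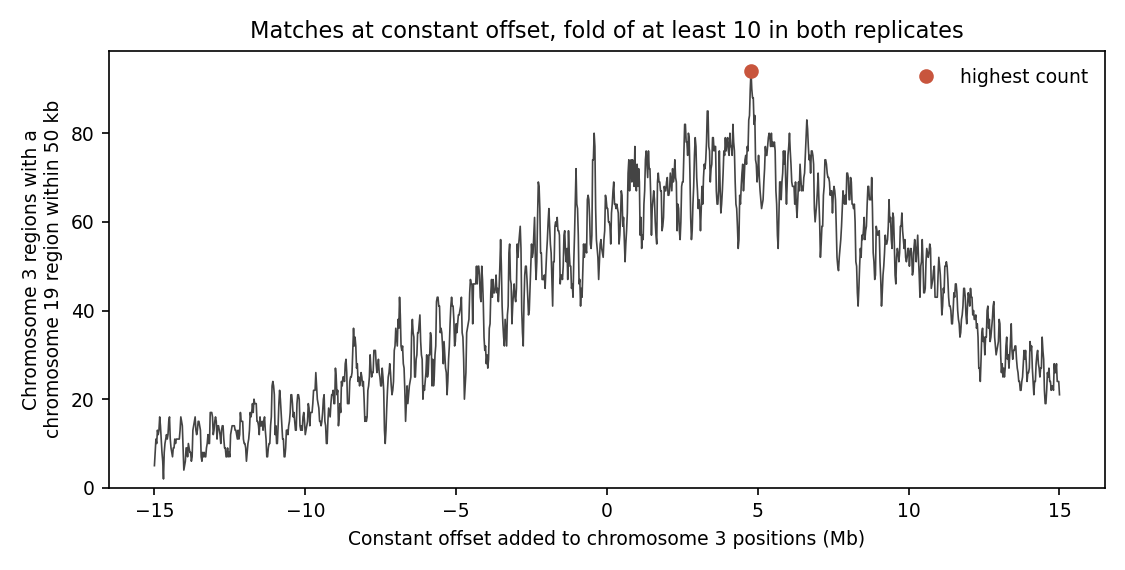
Number of chromosome 3 regions with a fold of at least 10 in both lists that came within 50 kb of such a region on chromosome 19 (y axis) after a constant distance in Mb was added to their positions (x axis), read in the same direction. The highest count, 94 of 174 at 4.775 Mb, is marked on top of a broad rise that follows the crowding of both chromosomes at their upper ends.

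Among all 190 pairs of chromosomes the pair ranked 51 by its highest count, 19 by that count as a share of the first chromosome's regions and 58 by its ratio to the median of nearby distances, which was 1.34. By these measures it did not stand out. Narrowing the limit from 50 kb to 10 kb, in steps of 5 kb and after the data had been seen, left 41 of 174 matches (23.6%) at 4.78 Mb, with a nearby median of 19 and a ratio of 2.16. At this limit the pair ranked 23 by count, 2 by share and 43 by ratio. The highest count thus fell at nearly the same distance at both limits, while the rank depended on the measure. At a given distance the matches within 10 kb are among those within 50 kb, so this likeness is no independent support.

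Matches at 4.775 Mb were almost all on the upper sides. Of the 128 regions of chromosome 3 there with a fold of at least 10, 90 matched (70.3%), against 4 of 46 on the lower side. On chromosome 19 it was 96 of 146 (65.8%) on the upper side and 4 of 41 on the lower. The upper sides are the crowded ones, and counts by side at other distances were not made. With both sides together, the median at nearby distances was already 70 of 174, against 94 here. These shares therefore cannot be set against what crowding alone gives. Of the 10 most enriched regions, 9 on chromosome 3 and 8 on chromosome 19 lay on the upper side. A match was found for 8 of the 10 on chromosome 3 and 7 of the 10 on chromosome 19. For 3 of those on chromosome 3 the match was itself among the 10 of chromosome 19. The region at 36005554, with folds of 54.5 in replicate 1 and 54.0 in replicate 2, matched the top region of chromosome 19 at 40810167, with folds of 65.3 and 60.3, 4.805 Mb away. Both members of the close pair of chromosome 3, at 37819912 and 37825187, lay nearest at that distance to the region at 42569972, 4.75 and 4.74 Mb away, which is a member of the close pair of chromosome 19. The other 5 matched regions were less enriched on chromosome 19. The region at 41861748, for example, with folds of 49.3 and 51.7, matched one at 46639560 with folds of 10.6 and 12.4. The regions of chromosome 3 were picked for their high fold, so a lower fold in most partners follows from that choice. No conclusion on corresponding positions is drawn from it. Whether matched regions lie in duplicated sequence was not tested.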

How the data were processed

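Peak lists in the narrowPeak layout, 1 for each ChIP biological replicate, were deposited by the authors; the labels' descriptions tie each list to both lanes of its replicate. Per the submitters' processing notes, the tools were Bowtie 0.12.7, which aligns reads, and the peak caller MACS2; its version and settings and the genome build are not named in the sources used here. For each peak the deposited values are a score, a fold enrichment (a ratio at the summit) and the −log10 p and −log10 q values of the authors' peak caller. The deposited score restates −log10 q (10 times it, rounded down) except in 3 replicate 1 peaks. All of these are the authors' values and served to describe, rank and filter peaks. Replicate 1 had 21196 peaks and replicate 2 had 18385. Library read totals are not used here, so depth is known only through the background under the peaks. The lists give no value for a single lane or input library.

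The fragments at the summit and the local background were solved from the fold and the Poisson p together, and came out whole (within 0.01 of the −log10 p) for 100.0% of peaks of both lists. Peaks overlapping by at least 1 bp were joined; a region's fold in a list is that of its highest peak there, and its summit lies midway between those of the replicates. Named on each chromosome were the 10 regions with the highest mean percentile rank of fold, the 3 longest gaps, the widest region, the closest strong pair and the longest run. Others (peaks in 1 list, regions of high background, the regions next in rank, the longest stretch without a strong region and matched regions) were named after their values were seen. The members, lists and comparisons were chosen with earlier results of these data known. Shares carry Wilson 95% intervals. No significance test was made. Computations used Python 3.11.15, numpy 2.4.6, pandas 2.3.3, scipy 1.17.1 and matplotlib 3.10.9. Simulated data were first used to test the solving of fragments and backgrounds, the joining of peaks and the gap lengths. They also served for the matches at a constant distance and the nearest-summit count, and the other steps had no such test. Alternatives were each list alone, a reciprocal overlap, a stricter −log10 q and other distances and fold limits.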

Additional observations from a re-analysis of the deposited data

How the results depend on the processing

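Of 85 alternative values for 18 results, 33 moved beyond the limit set for them: 1.5 times for counts, the counting interval for shares, the SD between the lists for densities and gaps, and any change of a rho or a rank. The only result with a direction, the ratio of densities, stayed above 1 in all its alternatives. The order of the chromosomes turned for the end share (69.2% on chromosome 3, 68.9% on chromosome 19) with an overlap of 50% of both peaks, and for that share and the strong share with replicate 2 alone, and for the strong share with a fold limit of 10. At −log10 q of at least 10, shared regions numbered 493 on chromosome 3 and 514 on chromosome 19, with densities of 10.8 and 10.1 per Mb. The ratio of densities of chromosome 3 to chromosome 19 was 1.05 when overlap had to cover 50% of both peaks and 1.07 for peaks with −log10 q of at least 10. With the outer 10% at each end in place of 20%, the end shares were 36.5% on chromosome 3 and 37.9% on chromosome 19. The share of strong regions was 11.6% and 10.7% at −log10 q of at least 10, and 24.4% and 24.6% with a fold of at least 10. Between shared regions the longest gap was 1.94 Mb on chromosome 3 and 2.27 Mb on chromosome 19, and at the stricter −log10 q it was 2.77 Mb on chromosome 19. Regions with a neighbour within 2 kb made up 10.8% and 13.2% at the stricter −log10 q, and within 5 kb 32.6% and 35.8%. The rho of fold was 0.815 with the reciprocal overlap and 0.801 at the stricter −log10 q. Matches at a constant distance were 19 of 57 with a fold of at least 20, and 124 of 174 within 100 kb. At a limit of 10 kb, chosen after seeing the data, they were 41 of 174. Apart from settings that change a definition by construction, the cause was not tested.

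With either list alone, the number of peaks was 818 to 953 on chromosome 3 and 872 to 1008 on chromosome 19, the ratio of densities 1.04 to 1.05, and the densities 17.9 to 20.9 and 17.2 to 19.9 per Mb. End shares were 69.7% to 70.6% and 68.8% to 71.0%, upper-side shares 72.6% to 74.5% and 81.0% to 81.3%, and strong shares 6.51% to 8.92% and 6.35% to 8.94%. The longest gaps were 1.80 to 1.80 Mb and 1.96 to 2.27 Mb, and close-neighbour shares 19.4% to 22.9% and 21.2% to 23.9%. Matches numbered 114 to 128. They were counted among peaks with a fold of at least 10 in the 1 list, another base than in 94 of 174. No paired analysis was possible, because input enters the lists only as the background and the input used for each list is not named. No result comes from a test. The number of fragments at a summit limits every fold, and library totals are not used here.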
